A study of Mus musculus with 9 samples.

Results

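Vegfa and other angiogenic factors were examined in neutrophils infiltrating chemically induced skin lesions of mice and in neutrophils of the skin around those lesions. The members were 10 named genes, Vegfa, Vegfb, Vegfc, Pgf, Prok2, Fgf2, Hgf, Hbegf, Pdgfb and Thbs1, of 34797 gene names on the array. Every probe that is not a control and carries one of these names was taken, which gave 13 probes of 55681. Vegfa, Fgf2 and Pdgfb had 2 probes each and the other members had 1.

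FVB/N mice had received DMBA, a mutagen, in weeks 6 and 13 of life, and repeated applications of PMA, a promoter of papilloma growth, from week 1 until week 18 to 20. Gr-1bright neutrophils were sorted to a purity above 98% from 4 sources, namely skin adjacent to papillomas (papilloma skin, 2 arrays), skin adjacent to tumors (tumor skin, 2 arrays), papillomas (3 arrays) and tumors (2 arrays). Every group, skin included, had thus received both agents, and no untreated skin was among the samples. Each array was hybridized with Cy3-labeled RNA from cells pooled over several mice, so the array was the unit of replication, and in such bulk samples a lower share of a cell type and less RNA per cell cannot be told apart.

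Angiogenesis, the sprouting of new vessels, is driven by secreted ligands that act on receptor tyrosine kinases of endothelial cells, foremost VEGF-A on VEGF receptors. Neutrophils can store and release VEGF-A, and Bv8, the product of Prok2, is a myeloid factor known to mobilize neutrophils and to promote vessel growth in tumors. Thrombospondin 1, the product of Thbs1, acts in the opposite sense and restrains endothelial growth.

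The single Prok2 probe lies on the minus strand at chr6:99661399-99661458, the Thbs1 probe on the plus strand at chr2:117952585-117952644, and the Hbegf probe on the minus strand at chr18:36664738-36664797, all in mm9.

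RefSeq windows around transcription starts (build GRCm38.p6) were on hand for 7 of the 10 members. Those of Vegfa and Prok2 are shown because their transcripts varied between the groups in different ways. Capitals mark matches, on either strand, to 4 motifs, namely the core letters of hypoxia response elements (ACGTG and GCGTG, reverse complements CACGT and CACGC), the AP-1 site TGACTCA and the GC box GGGCGG. The Vegfa window, at the first of its listed starts, is chr17:46032328-46032627 and the Prok2 window chr6:99726343-99726642, both on the minus strand and 300 bases long.

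Vegfa: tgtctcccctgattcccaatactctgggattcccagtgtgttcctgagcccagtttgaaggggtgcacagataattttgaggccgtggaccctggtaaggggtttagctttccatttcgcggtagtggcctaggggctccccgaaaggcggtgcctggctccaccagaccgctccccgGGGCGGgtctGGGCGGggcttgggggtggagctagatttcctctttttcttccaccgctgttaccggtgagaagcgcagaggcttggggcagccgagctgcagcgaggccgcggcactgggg

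Prok2: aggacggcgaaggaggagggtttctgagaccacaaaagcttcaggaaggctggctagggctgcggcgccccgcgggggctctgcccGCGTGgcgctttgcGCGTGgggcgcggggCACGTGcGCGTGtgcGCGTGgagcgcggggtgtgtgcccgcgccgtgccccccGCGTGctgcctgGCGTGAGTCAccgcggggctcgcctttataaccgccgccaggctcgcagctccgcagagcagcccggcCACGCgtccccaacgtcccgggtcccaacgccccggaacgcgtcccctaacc

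The Vegfa window shown held 2 GC boxes and no match to the other motifs. The window at the other listed start of Vegfa, which is not shown, held 1 match each to ACGTG and GCGTG and 1 GC box, so both genes had a hypoxia letter string in at least 1 window. The Prok2 window held 7 matches to GCGTG, 2 overlapping matches to ACGTG that form the palindrome CACGTG, and 1 match to the AP-1 site in its reverse complement TGAGTCA, which overlaps one of the GCGTG matches. Of 32851 windows of the same length, 43.8% held at least one of both hypoxia letter strings, 5.2% the AP-1 site and 35.7% the GC box. These are letter matches in a short window and do not show that a factor was bound.

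Values are those of the deposited table, which gives each probe a log2 level on each array (column medians 6.08 to 6.12). A probe was called changed when its limma p, adjusted over all 55681 probes by Benjamini-Hochberg, did not exceed 0.05, its log2 fold change was 1 or more in size, and its mean level was 6 or more. Of the 13 member probes, 10 had a mean level above that minimum and could be called. Both Fgf2 probes and Pdgfb probe 2 could not. Of all 55681 probes, 28871 reached the minimum, so the shares over all probes below include many that could not be called. All p-values below come from this limma fit across all probes.

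Some arrays stood apart, which touches every result on papilloma skin, tumor skin and tumor. The spike-in slope, which relates signal to the amount of control RNA added and thus measures the signal range, was 0.678 for papilloma skin 1, 0.876 for tumor skin 1 and 0.894 for tumor 1. It was 1.04 to 1.06 for the other 6 arrays. The arrays of low slope were the number 1 arrays of their groups and lay on slide 1, which also held papilloma 1. On them 95%, 90.7% and 94.2% of all probes were flagged well above background, against 43.5% to 63.5% on the other 6. The flag therefore says little about a single probe on those arrays. The table column of papilloma skin 1 had a Spearman rho of 0.587 over all probes with the scanner file of the same label and of 0.923 with that of tumor 2, and the column of tumor 1 had 0.825 with its own file and 0.946 with that of tumor 2. The columns of papilloma 2 and papilloma 3 were each closest to the file of the other, which leaves the group unchanged. The other 5 columns were closest to their own files (rho 0.93 to 0.98). Quantile-normalized values from the scanner files are therefore given beside the table for the members whose pattern they change.

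In the value table, lesion neutrophils had more Vegfa and Hbegf transcript than neutrophils of the surrounding skin at both stages. Vegfa probe 1 was 2.61-fold higher in tumor, and Hbegf, which encodes a heparin-binding ligand of the EGF receptor, was 7.02-fold higher in papilloma and 6.01-fold higher in tumor. Prok2 was higher in papilloma than in papilloma skin but already high in tumor skin, and Thbs1 was highest in papilloma skin, though not in the scanner files. Of the 13 member probes, 3 probes of 2 genes were called in tumor versus tumor skin, where 4.21% of all probes were called. In papilloma versus papilloma skin 4 probes of 4 genes were called, against 3.18% of all probes. The median log2 fold change of the 13 probes was 0.36 in the tumor comparison and 0.60 in the papilloma comparison, beside -0.019 and -0.006 over all probes.

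**Figure D1:**
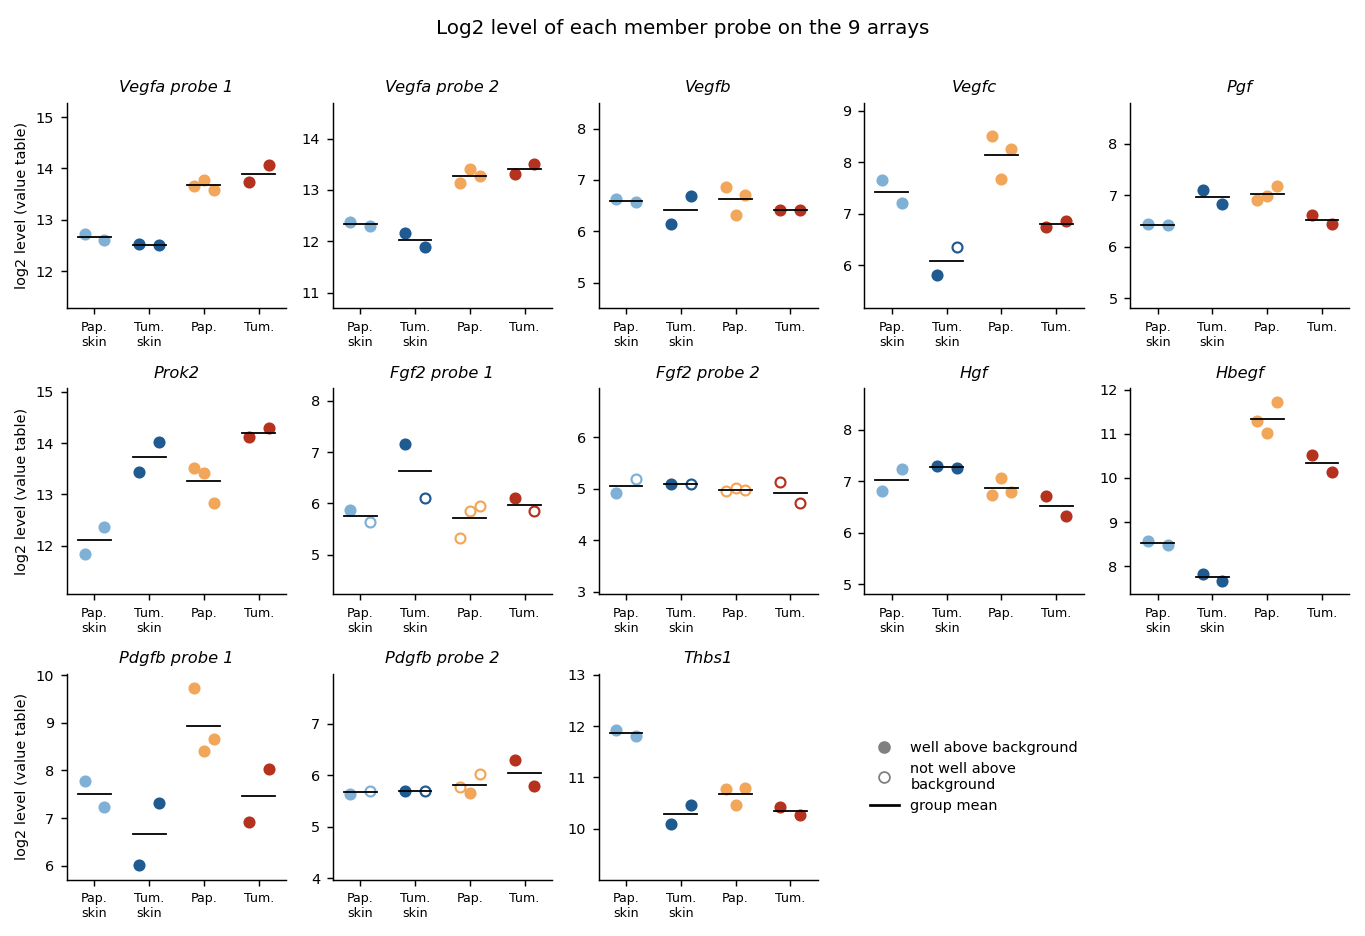
Log2 level of each of the 13 member probes (vertical axis, value table, each panel with its own range) on the 9 arrays, by group. Points are arrays, open where the probe was not well above background in the scanner file of that label, and lines are group means. All 5 lesion arrays lie above all 4 skin arrays for both Vegfa probes and Hbegf.

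Vegfa, the main ligand of endothelial VEGF receptors, was well above background on every array. Probe 1 read 12.72 and 12.61 in papilloma skin, 12.53 and 12.50 in tumor skin, 13.66, 13.78 and 13.58 in papilloma, and 13.74 and 14.06 in tumor. The lowest lesion array was thus above the highest skin array, and the skin arrays differed little among themselves. Probe 1 rose by 1.38 on the log2 scale in tumor over tumor skin (2.61-fold, SE 0.158, adjusted p = 0.00317). It rose by 1.00 in papilloma over papilloma skin (SE 0.144, adjusted p = 0.00641), which sits on the fold minimum. The effect fell under that minimum without papilloma skin 2 or without papilloma 2 (0.95 each) and with the median over the probes of the gene (0.97). The call was also lost with the replicate number as a block (1.05, adjusted p = 0.0745).

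Probe 2 of Vegfa behaved alike. It read 12.38 and 12.30 in papilloma skin, 12.16 and 11.89 in tumor skin, 13.14, 13.41 and 13.27 in papilloma, and 13.31 and 13.51 in tumor. Again no lesion array overlapped a skin array. The log2 fold change was 1.38 in tumor over tumor skin (SE 0.164, adjusted p = 0.0035). In papilloma over papilloma skin it was 0.93 (1.91-fold, SE 0.149, adjusted p = 0.00981), past the p threshold but under the fold minimum, and therefore not called. Over the 9 columns the probes had a Pearson r of 0.984 with each other.

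The order of the Vegfa levels was tumor, papilloma, papilloma skin and tumor skin with both probes. Tumor and papilloma, neighbours in this order, did not differ beyond their spread (probe 1 log2 difference 0.23, 95% interval -0.10 to 0.56, adjusted p = 0.499). Neither did tumor skin and papilloma skin (-0.15, 95% interval -0.51 to 0.21, adjusted p = 0.584). The step from papilloma skin to papilloma is the one described above. Over both stages, lesions exceeded skin by 1.19 with probe 1 (SE 0.107, adjusted p = 0.000389) and by 1.16 with probe 2 (SE 0.111, adjusted p = 0.000523), in a comparison in which 3.62% of all probes were called. The order within lesions and within skin held in the table but not with scanner values of all arrays. The probe 1 difference was -0.10 there between tumor and papilloma and 0.53 between tumor skin and papilloma skin. Scanner values of the 6 arrays of full spike-in slope gave the order of the table. Tumor versus papilloma was 0.4 with probe 1 and 0.24 with probe 2 in that setting. Tumor skin versus papilloma skin was -0.25 and -0.54. The setting keeps a single array each of papilloma skin, tumor skin and tumor.

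In the value table Hbegf had the widest lesion effect of the members. It read 8.58 and 8.49 in papilloma skin, 7.82 and 7.67 in tumor skin, 11.28, 11.02 and 11.73 in papilloma, and 10.53 and 10.13 in tumor. The 4 groups did not overlap, and the lowest lesion array was above the highest skin array. Hbegf rose by 2.81 in papilloma over papilloma skin (7.02-fold, SE 0.221, adjusted p = 0.000494) and by 2.59 in tumor over tumor skin (6.01-fold, SE 0.242, adjusted p = 0.00159). Papilloma lay above tumor and papilloma skin above tumor skin, but tumor versus papilloma (log2 -1.02, SE 0.221, adjusted p = 0.108) and tumor skin versus papilloma skin (log2 -0.79, SE 0.242, adjusted p = 0.126) did not pass. The lesion effects of the stages differed by -0.22 (95% interval -0.98 to 0.53, adjusted p = 0.798). In the scanner files the skin groups overlapped, at 7.38 and 8.67 in papilloma skin and 7.84 and 7.57 in tumor skin. Tumor skin versus papilloma skin was -0.32 there, 0.17 with slide as a term and 0.10 with ComBat. Tumor versus papilloma stayed negative (-1.03, -1.23 and -1.19).

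All 5 lesion arrays exceeded all 4 skin arrays in 3 of the 13 member probes, both Vegfa probes and Hbegf, and in 7.49% of all probes. Vegfa probe 1 was higher in the lesion by 0.94 and 1.17 on the slides that held papilloma and papilloma skin and by 1.21 on the slide that held tumor and tumor skin. Hbegf was higher by 2.70, 2.53 and 2.72 in the same pairs, each column being assigned to the slide of the scanner file with its label. In the scanner files themselves the same pairs differed more among each other, by 2.57, 0.93 and 0.68 for Vegfa probe 1 and by 3.69, 3.21 and 2.39 for Hbegf, with the lesion higher in every pair. With slide as a term in the fit, the tumor effect was 1.30 for Vegfa probe 1 (adjusted p = 0.0759) and 1.29 for probe 2 (adjusted p = 0.0802), so that both calls were lost, whereas Hbegf was still called at both stages. In that fit 0.375% of all probes were called in the tumor comparison and 1.76% in the papilloma comparison.

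**Figure D2:**
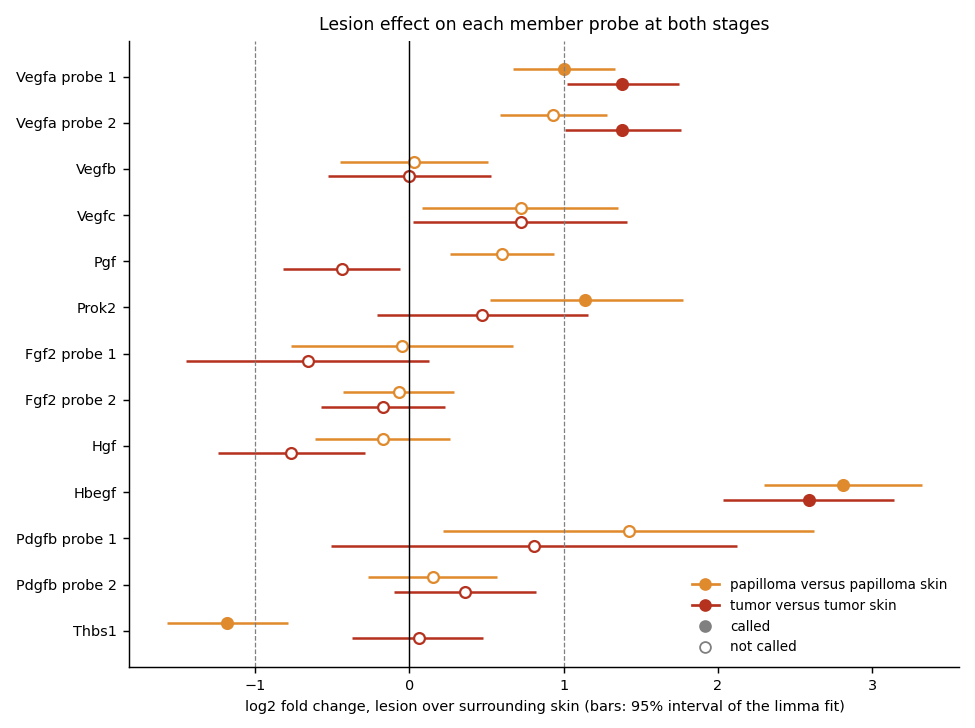
Log2 fold change of lesion over surrounding skin (horizontal axis) for each member probe, papilloma in orange and tumor in red. Bars are 95% intervals of the limma fit, filled points were called, and dashed lines mark the fold minimum. Hbegf lies near 2.8 and 2.6, Vegfa near 1.0 and 1.4, and Thbs1 is at -1.18 in papilloma, a value that turned positive with scanner files of all 9 arrays.

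Prok2, the gene of Bv8, was lowest in papilloma skin. It read 11.84 and 12.37 in papilloma skin, 13.44 and 14.03 in tumor skin, 13.52, 13.41 and 12.83 in papilloma, and 14.12 and 14.29 in tumor. Papilloma skin was the lowest group without overlap, and tumor skin reached the level of the lesions. Prok2 was higher by 1.14 in papilloma than in papilloma skin (2.21-fold, SE 0.273, adjusted p = 0.0467). It was higher by 0.47 in tumor than in tumor skin (SE 0.299, adjusted p = 0.352), which did not pass.

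The order of Prok2 was tumor, tumor skin, papilloma and papilloma skin. The first neighbours, tumor and tumor skin, did not differ beyond their spread, nor did papilloma and tumor skin (log2 -0.48, 95% interval -1.11 to 0.14, adjusted p = 0.239). Tumor skin was 3.09-fold above papilloma skin (log2 1.63, SE 0.299, adjusted p = 0.0544), just short of the threshold. The ends of the order, tumor and papilloma skin, differed by 2.10 (4.29-fold, adjusted p = 0.0071), in a comparison in which 2.93% of all probes were called. The papilloma call was close to the threshold and was lost when single arrays were left out, namely papilloma skin 1 (0.88, adjusted p = 0.223), papilloma skin 2 (1.41, adjusted p = 0.0806), papilloma 1 (1.01, adjusted p = 0.136), papilloma 2 (1.06, adjusted p = 0.124), tumor 1 or tumor 2 (1.14, adjusted p = 0.0741 each). It was also lost with slide as a term (adjusted p = 0.134) and with the replicate number as a block (adjusted p = 0.0654), both with the same sign. The call between tumor and papilloma skin was lost without tumor 2 (2.02, adjusted p = 0.0611).

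Thbs1 read 11.92 and 11.81 in papilloma skin, 10.10 and 10.47 in tumor skin, 10.78, 10.47 and 10.79 in papilloma, and 10.43 and 10.26 in tumor. Papilloma skin stood alone as the high group, and the other 3 groups lay within 10.10 to 10.79. Thbs1 fell by 1.18 in papilloma versus papilloma skin (SE 0.169, adjusted p = 0.00627). It was also the member called in tumor skin versus papilloma skin, where 0.26% of all probes were called (log2 -1.58, SE 0.185, adjusted p = 0.0338). Tumor and tumor skin differed by 0.06 (95% interval -0.37 to 0.48, adjusted p = 0.882). The difference between the lesion effects was 1.24 (SE 0.251, unadjusted p = 0.00105), but its adjusted p was 0.142.

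These Thbs1 results rest on the papilloma skin columns. Papilloma skin 1 read 11.92 in the table but 8.02 in the quantile-normalized scanner file of the same label, whereas papilloma skin 2 read 11.81 and 11.85. With scanner values of all 9 arrays, papilloma skin lost its lead and the papilloma effect turned to 0.57 to 0.88, none of it called. With those of the 6 arrays without a low spike-in slope, which leave out papilloma skin 1, the papilloma effect was -1.23. Papilloma skin 2 is then the single array of its group, and tumor skin and tumor also keep a single array each. In the table it stayed at -1.24 to -1.08 on leaving out any single array. Without the papilloma skin 1 column the table gave -1.52 for tumor skin versus papilloma skin (adjusted p = 0.211), and that call was lost on leaving out any single array, with values of -1.76 to -1.39. Over the columns, Prok2 and Thbs1 ran opposite to each other (Pearson r = -0.875, 9 columns, a description).

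**Figure D3:**
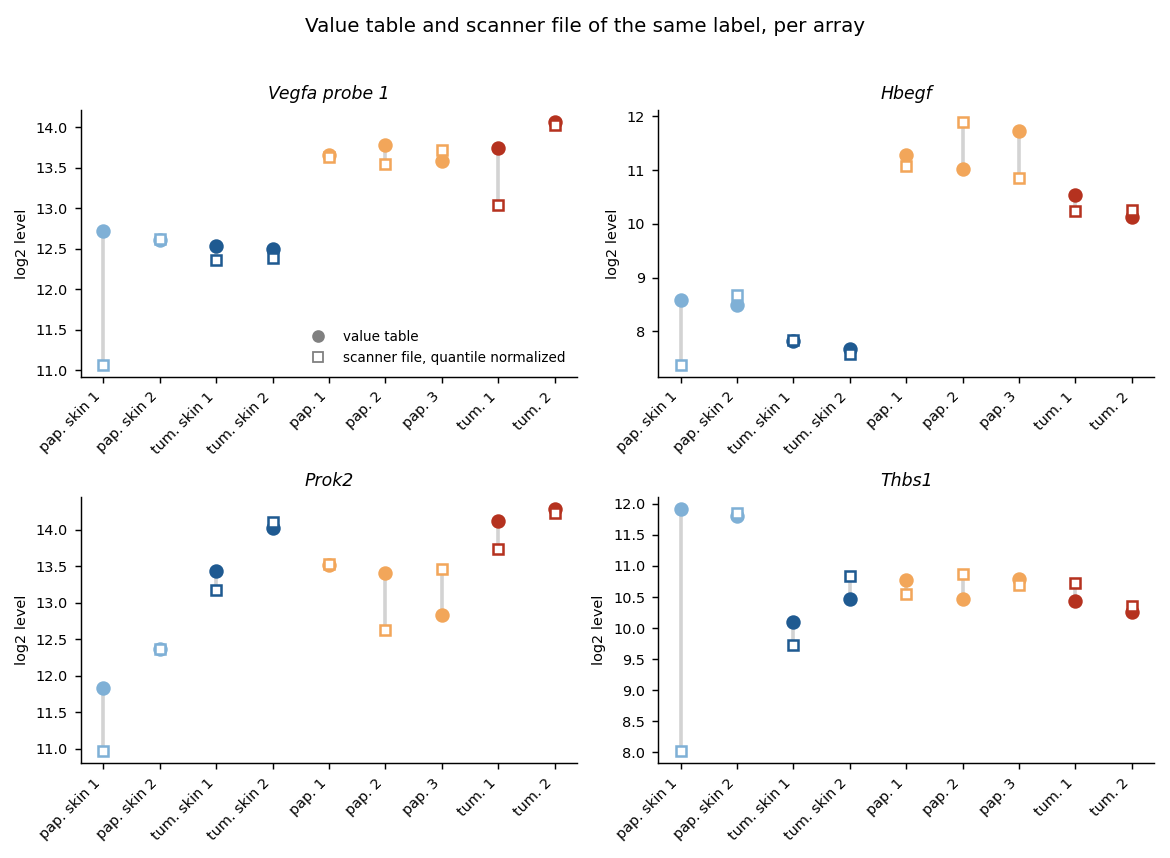
Log2 level (vertical axis) of 4 members on each array, from the value table (circles) and from the quantile-normalized scanner file of the same label (squares), with grey lines joining them. Papilloma skin 1 is lower in the scanner file for all 4 members, by most for Thbs1 (8.02 against 11.92), and papilloma 2 and 3 trade places for Hbegf and Prok2.

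In the scanner files the direction of Vegfa, Hbegf and Prok2 was the same as in the table in the lesion comparisons in which they were called, but no member was called in them except with the slide effect removed by ComBat. With ComBat, 5 member probes were called in papilloma versus papilloma skin, namely both Vegfa probes, Prok2, Hbegf and Pdgfb probe 1, where 7.19% of all probes were called, and 0 in tumor versus tumor skin, where 0.221% were called. Vegfa probe 1 read 11.07 on papilloma skin 1 and 12.62 on papilloma skin 2, against 13.63, 13.55 and 13.72 in papilloma. Its tumor arrays read 13.04 and 14.03 and its tumor skin arrays 12.36 and 12.38. Lesion arrays were thus still above skin arrays. Across all settings tried, the tumor effect ranged from 0.89 to 1.68 and the papilloma effect from 0.95 to 2.73 for Vegfa probe 1. The Hbegf effects ranged from 2.05 to 3.11 in tumor and from 2.62 to 3.45 in papilloma.

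Among the other VEGF family ligands, Vegfc, a ligand of the lymphatic receptor encoded by Flt4, read 7.65 and 7.21 in papilloma skin, 5.80 and 6.36 in tumor skin, 8.52, 7.67 and 8.25 in papilloma, and 6.74 and 6.86 in tumor. Its probe was not well above background on tumor skin 2. In the table both papilloma stage groups lay above both tumor stage groups, and the lesion lay above its skin at each stage. The lesion effects were 0.72 in papilloma (adjusted p = 0.189) and 0.72 in tumor (adjusted p = 0.176), and neither passed. The stage differences, -1.35 between tumor and papilloma (adjusted p = 0.0929) and -1.35 between the skin groups (adjusted p = 0.077), did not pass either. The ends of the order, papilloma and tumor skin, differed by 2.07 (4.19-fold, SE 0.278, adjusted p = 0.00317), in a comparison in which 6.09% of all probes were called. Scanner values of all 9 arrays gave another order for Vegfc, with 5.29 and 6.89 in papilloma skin, 5.73 and 6.01 in tumor skin, 9.12, 8.00 and 7.61 in papilloma, and 8.55 and 6.24 in tumor. Tumor then lay above papilloma skin on average, and the skin groups overlapped and differed by -0.21. The papilloma effect was 2.16 (adjusted p = 0.516), or 2.22 with ComBat (adjusted p = 0.0502), and the tumor effect 1.52. Papilloma and tumor skin differed by 2.37 and were not called (adjusted p = 0.724). Scanner values without the arrays of low spike-in slope gave the order of the table. Tumor versus papilloma was -2.39 there, tumor skin versus papilloma skin -1.05, the papilloma effect 1.61 and the tumor effect 0.27. That setting keeps a single array each of papilloma skin, tumor skin and tumor.

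Pgf, which encodes placental growth factor, a ligand of the receptor encoded by Flt1, had effects of opposite sign at the stages in the value table, of which neither was called. It read 6.44 and 6.42 in papilloma skin and 6.91, 6.99 and 7.19 in papilloma, but 7.11 and 6.83 in tumor skin and 6.62 and 6.44 in tumor. Lesion and skin did not overlap at either stage, as was the case for 37.6% of all probes in papilloma and 52.1% in tumor. The effects were 0.60 in papilloma (adjusted p = 0.0548) and -0.44 in tumor (adjusted p = 0.132). Their difference of -1.04 had an unadjusted p of 0.00148 and an adjusted p of 0.148, so it did not pass over all probes. The opposite signs were not seen with scanner values of all arrays. Pgf then read 7.89 and 5.84 in papilloma skin and 6.85, 7.15 and 6.79 in papilloma. It read 7.28 and 6.35 in tumor skin and 7.45 and 6.23 in tumor. Lesion and skin overlapped there at both stages, and the effects were 0.07 and 0.02. With scanner values of the 6 arrays of full spike-in slope the signs were opposite, at 1.31 in papilloma and -0.15 in tumor. That setting keeps a single array each of papilloma skin, tumor skin and tumor.

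Vegfb, another Flt1 ligand, lay between 6.14 and 6.87 on all arrays, with effects of 0.03 in papilloma (95% interval -0.45 to 0.51) and 0.00 in tumor (95% interval -0.53 to 0.53). Its scanner values were 4.83 on papilloma skin 1, 5.36 on tumor skin 1 and between 5.93 and 6.82 on the other arrays, and its effects were 0.87 in papilloma and 0.38 in tumor, neither called.

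Of the growth factors that act on vessels and their supporting cells, Hgf, the ligand of the receptor Met, read 6.82 and 7.25 in papilloma skin, 7.30 and 7.27 in tumor skin, 6.74, 7.06 and 6.79 in papilloma, and 6.71 and 6.32 in tumor. In the table tumor was the lowest group without overlap. The tumor effect was -0.77 (SE 0.208, adjusted p = 0.0551) and the papilloma effect -0.17 (SE 0.19, adjusted p = 0.665), and neither was called. In the scanner files the lowest array was papilloma skin 1 at 4.98, below tumor at 5.42 and 6.01. The papilloma arrays read 5.67, 6.63 and 7.27 there against 4.98 and 7.14 in papilloma skin, so that the papilloma effect turned to 0.46, while the tumor effect was -1.42, and neither was called. The papilloma effect was also positive with slide as a term (0.26), with ComBat (0.3) and after normexp (0.21). It was negative when scaled to the 75th percentile (-0.38) and with the 6 arrays of full spike-in slope (-0.74).

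Pdgfb, whose product recruits pericytes, gave different pictures with its probes. Probe 1 read 7.78 and 7.23 in papilloma skin, 6.01 and 7.32 in tumor skin, 9.72, 8.41 and 8.65 in papilloma, and 6.92 and 8.02 in tumor. Papilloma was the highest group without overlap, but the arrays of tumor skin and of tumor were far apart from each other. The papilloma effect of 1.42 (SE 0.523, adjusted p = 0.167) did not pass, while papilloma versus tumor skin did (2.26, SE 0.523, adjusted p = 0.0232). The latter call was lost without tumor skin 1 (1.61, adjusted p = 0.14), without papilloma 1 (1.87, adjusted p = 0.0554), without papilloma 3 (2.40, adjusted p = 0.0527) and with slide as a term (2.34, adjusted p = 0.0782). The scanner values of probe 1 were 4.28 and 6.93 in papilloma skin and 10.51, 8.51 and 8.33 in papilloma. The papilloma effect was 3.51 there and not called (adjusted p = 0.45), and with ComBat it was 3.47 and called (adjusted p = 0.0314). These values exceeded those of Hbegf in the same settings, 3.25 and 3.42. Probe 2 lay between 5.64 and 6.30, was well above background on 5 of 9 arrays, and had effects of 0.15 in papilloma and 0.36 in tumor. Fgf2 was near or below background. Its probes were well above background on 3 and 2 of 9 arrays, which were among the arrays with a low spike-in slope, and lay between 5.32 and 7.16 and between 4.72 and 5.19. Fgf2 probe 1 read 9.37, 7.96 and 7.89 on the scanner files of papilloma skin 1, tumor skin 1 and tumor 1 and 4.35 to 5.25 on the other arrays.

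Vegfc and Pdgfb probe 1 varied together over the columns (Pearson r = 0.907, 9 columns, a description). Both were on average highest in papilloma, as were the summed markers of vessel cells. The summed level of 10 endothelial markers was 12.71 to 13.17 in papilloma, 10.40 to 11.86 in papilloma skin, 10.89 to 11.95 in tumor and 9.87 to 10.07 in tumor skin. Of these 10 markers, 8 were called higher in the papilloma comparison and 4 in the tumor comparison. The summed level of 8 pericyte and smooth muscle markers was 13.57 to 13.71 in papilloma and 11.60 to 12.11 on all other arrays. This sum was lowest in tumor (11.60 to 11.68), whereas Vegfc and Pdgfb probe 1 were on average lowest in tumor skin. Of the 8 markers, 7 were called higher in papilloma versus papilloma skin and Rgs5 alone in tumor versus tumor skin. Of the endothelial markers, Pecam1, Vwf and Egfl7 were well above background on every array and the others on 7 or 8 of 9. The part of these cells in the Vegfc and Pdgfb values was not tested.

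**Figure D4:**
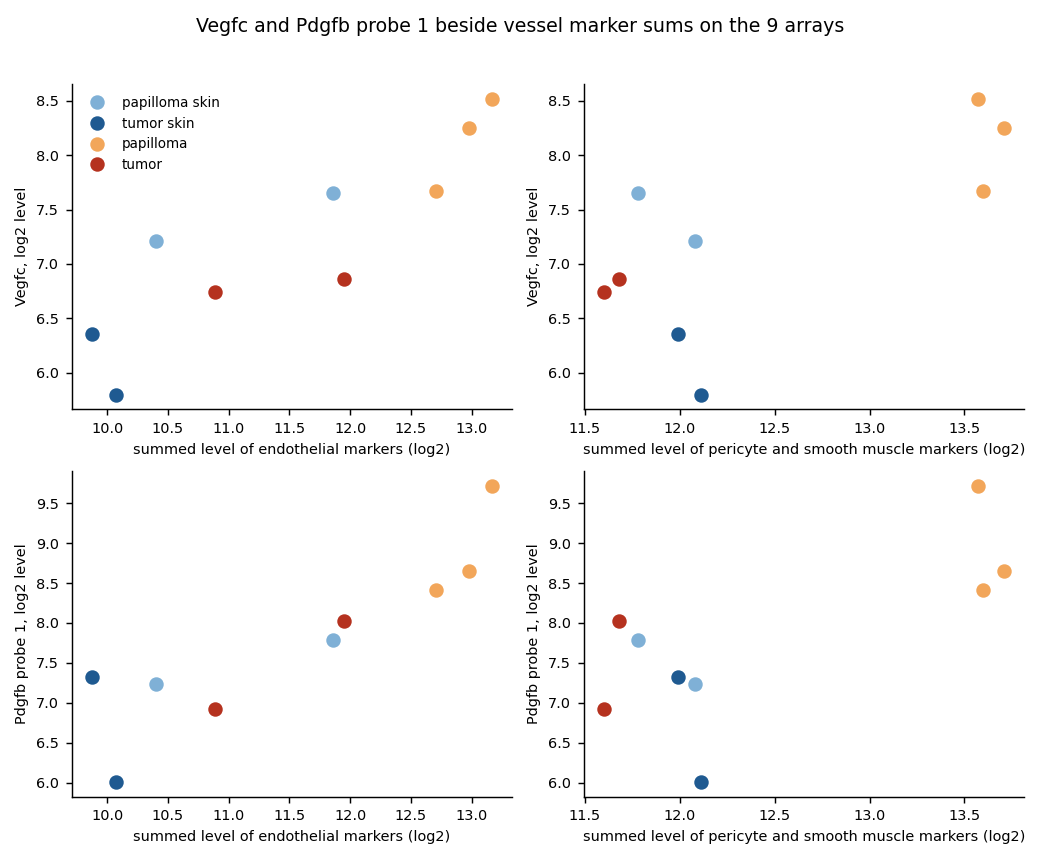
Log2 level of Vegfc (top) and Pdgfb probe 1 (bottom) against the summed log2 level of 10 endothelial markers (left) and of 8 pericyte and smooth muscle markers (right). Points are the 9 arrays, colored by group. The 3 papilloma arrays sit at the upper right of each panel, with endothelial sums of 12.71 to 13.17.

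Markers of other cells and of the sorted cells themselves also differed between the groups. The summed level of 11 neutrophil markers, all well above background on every array, was 19.80 to 20.17 in skin and tumor and 19.64 to 19.65 in papilloma. This sum was set mostly by S100a9 and S100a8, at mean levels of 18.56 and 18.08. Of the 11 markers, the granule genes Mmp8, Ltf, Ngp and Camp were called lower in both lesion comparisons (log2 -1.95, -2.46, -3.27 and -4.14 in papilloma). Ly6g, which encodes an antigen of the sort antibody, was called lower in tumor (-2.09). Keratinocyte markers summed to 13.40 to 14.33 in skin and 14.42 to 16.32 in lesions, with Krt6b and Krt16 of 11 called higher in papilloma (4.88 and 2.38) and Krt6b, Krt14 and Krt16 in tumor (7.23, 3.29 and 2.94).

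Eosinophil markers summed to 12.52 to 13.78 in skin and 9.75 to 10.65 in lesions. Il5ra, Ccr3, Ear1 and Ear2 of 6 were called lower in both comparisons (-1.95, -2.29, -3.43 and -3.87 in papilloma), while the defining granule genes Epx and Prg2 were well above background on 3 and 4 of 9 arrays. Fibroblast sums were 13.61 to 14.67 in papilloma skin, 12.99 to 13.14 in tumor skin, 15.05 to 15.53 in papilloma and 12.33 to 13.85 in tumor, with Dcn of 9 called lower in tumor (-1.38). Monocyte and macrophage sums were 15.25 to 15.77, with Emr1 of 10 called lower in papilloma (-3.09) and tumor (-2.04). Mast cell sums were 17.05 to 17.49, a sum set almost wholly by Hdc at a mean level of 17.24, while the other 6 genes had mean levels of 4.79 to 9.30. None of the 7 was called (0 of 7 in limma at adjusted p, the largest change being -1.36 for Kit in tumor versus tumor skin, adjusted p = 0.0914), and Ms4a2 was well above background on none of 9 arrays. These marker genes were named after their values were seen. The part of these cells in the higher Vegfa and Hbegf levels of lesions was not tested.

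Other genes of the pathway were counted from lists. Of 19 angiogenic receptors and co-receptors, 3 were called higher and 1 lower in papilloma versus papilloma skin, and 2 higher and 1 lower in tumor versus tumor skin, with a median of 0.18 in both. Pdgfrb, the receptor for PDGF-B on pericytes, was higher by 3.23 (adjusted p = 0.000114) and 1.68 (adjusted p = 0.00207). Flt1, which encodes VEGF receptor 1, was higher by 2.20 (adjusted p = 0.00837) and 1.51 (adjusted p = 0.0412). Tie1, an endothelial receptor that is also in the endothelial list, was called in papilloma only, at 1.61 (adjusted p = 0.0282), which does not show that the stages differ. Fgfr1, a receptor for FGF2, was lower in both (log2 -2.29, adjusted p = 0.0041, and -2.11, adjusted p = 0.00829). Pdgfrb was also the receptor called in tumor versus papilloma, where it was lower (log2 -1.99, adjusted p = 0.00382).

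Of 25 other ligands and inhibitors measured, 5 were called higher in the papilloma comparison, 4 were called higher in the tumor comparison and none was called lower, with a median of 0.39 in both. Angpt2, which encodes the angiopoietin that destabilizes vessels, was higher by 2.38 (adjusted p = 0.00255) in papilloma and 1.36 (adjusted p = 0.0294) in tumor. Efna1, an ephrin ligand, was higher by 1.85 (adjusted p = 0.0404) and 1.89 (adjusted p = 0.0411). In papilloma, Pdgfa, another PDGF ligand, was higher by 2.05 (adjusted p = 0.00564) and Apln, which encodes the endothelial peptide apelin, by 1.85 (adjusted p = 0.0228). In tumor, the vasoactive peptide gene Adm was higher by 3.24 (adjusted p = 0.00216), against 1.45 in papilloma (adjusted p = 0.029), and the EGF receptor ligand gene Ereg by 1.92 (adjusted p = 0.038). In tumor versus papilloma, where 0.447% of all probes were called, 2 of these 25 were called lower, Angpt2 (-1.62, adjusted p = 0.0499) and the inhibitor Serpinf1 (-2.80, adjusted p = 0.028), the latter named after its values were seen.

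Of 21 hypoxia-inducible genes, among which Vegfa is usually counted, 12 were called higher in the papilloma comparison and 11 in the tumor comparison, none lower, with medians of 1.42 and 1.18. Hk2, the first enzyme of glycolysis, was higher by 3.08 (adjusted p = 9.36e-05) and 2.87 (adjusted p = 0.000231). Egln3, an oxygen-sensing prolyl hydroxylase, was 8-fold higher in both (adjusted p = 0.000181 and 0.000482). Ero1l, an oxidase of the endoplasmic reticulum, was higher by 2.89 (adjusted p = 0.000289) and 2.86 (adjusted p = 0.000813), and Bnip3, a mitochondrial protein of cell death and mitophagy, by 2.17 (adjusted p = 0.000253) and 2.25 (adjusted p = 0.000498). None of the 21 was called in tumor versus papilloma or in tumor skin versus papilloma skin.

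**Figure D5:**
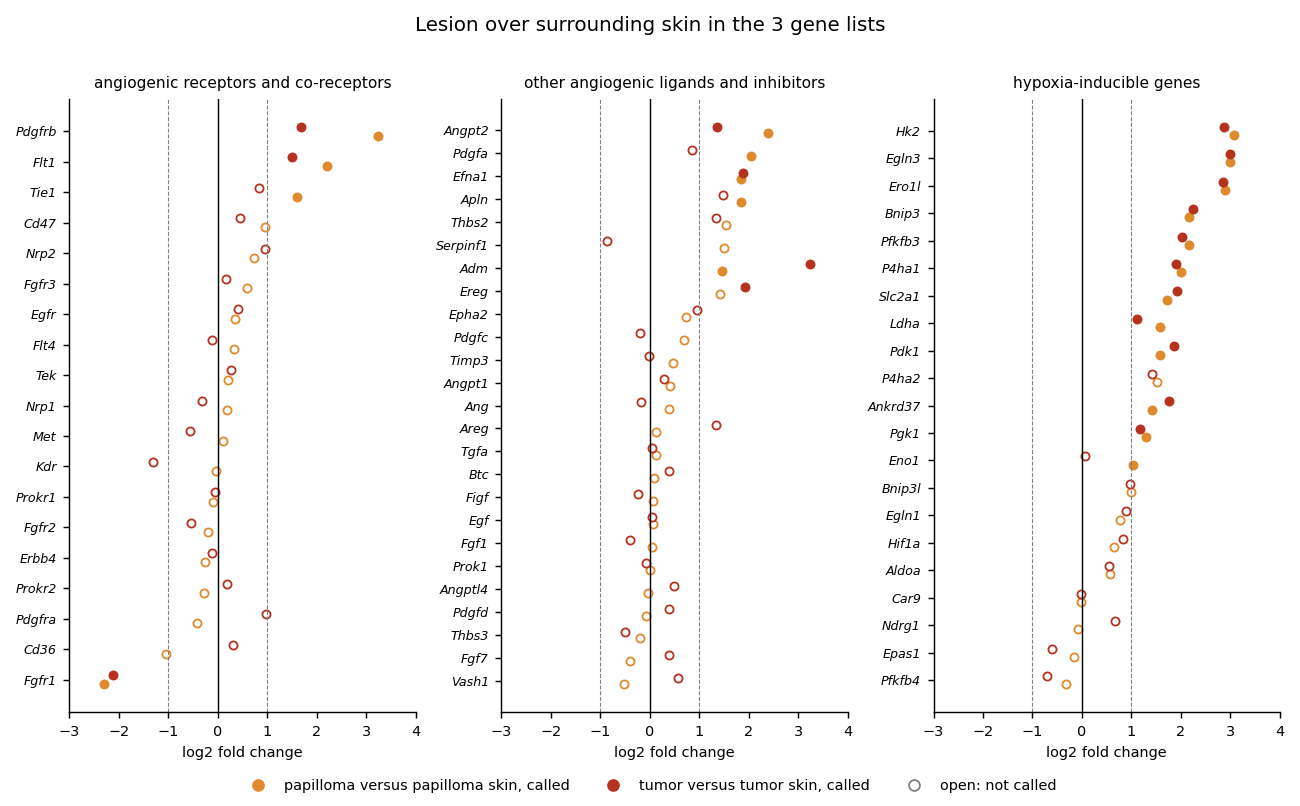
Log2 fold change of lesion over surrounding skin (horizontal axis) for the genes of 3 lists, papilloma in orange and tumor in red, filled where called. Most hypoxia-inducible genes lie to the right of 0 at both stages (medians 1.42 and 1.18), while receptors and other ligands centre near 0 with a few genes at 1.5 or more.

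No member was called in tumor versus papilloma or in the difference between the lesion effects, in which 0.0269% of all probes were called. In limma at an unadjusted p under 0.05, Vegfc, Pgf, Prok2, Hbegf and Pdgfb probe 1 differed between tumor and papilloma, with Prok2 higher in tumor (log2 0.96, adjusted p = 0.19) and the others lower. These were 5 of 13 member probes, against 14.4% of all probes. In the difference between the lesion effects, Pgf and Thbs1 had an unadjusted p under 0.05, that is 2 of 13, a share near the 14.7% of all probes.

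The genes whose levels over the 9 columns were most like those of Vegfa, by Pearson r with its brighter probe, were Serf1 and Rbpj (0.994 each), Ccdc126 (0.993), Trim25 (0.992) and Sprr1b (0.991). For Hbegf they were Cish (0.994), Pcdh12 (0.989) and Hrct1 (0.988), and for Prok2 they were Bnip3l (0.976), Tti1 (0.976) and Saa1 (0.967). For Thbs1 they were Tigd4 (0.987), B4galt6 (0.98) and Tmem64 (0.977). With 55681 probes and 9 columns that share the group structure, high values of r are frequent, and these are given as a description.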

How the data were processed

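The authors deposited, for each array, scanner output with background-subtracted fluorescence intensity per spot (1 color, not scaled between arrays), and a table of log2 values per probe. Per the methods, arrays were quantile normalized with limma and the effect of chips was taken out by ComBat. Which of these steps the table holds is not given in the sources used here. Probe positions are in mm9 per the file headers.

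The 55681 probes of the deposited log2 table were fitted with limma 3.58.1 in R 4.3.3 (with data.table, version 1.17.8), with 4 group means, 9 arrays and 5 residual degrees of freedom, which limits precision. The thresholds for p, fold change and level were those of the methods. The fit was tested on simulated data. Marker sums add linear levels of the brightest probe per gene. No column of another sample was present.

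The members, lists and tests were chosen with earlier results of these data known. Named are the members, the 4 list genes with the largest called changes per list and comparison, and the genes most like 4 members. Alternatives concerned level and fold minimum, replicate block, slide, gene medians, dim probes, scanner values under 5 treatments (normexp offset 50 among them), and single arrays left out. The 6 columns and arrays with a full spike-in slope were added after the data were seen. Tie1 and Tek are in both the endothelial and the receptor list, and Pdgfra in both the fibroblast and the receptor list. Figures used Python 3.11.15 and matplotlib 3.10.9. A probe sequence is not reported here.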

Additional observations from a re-analysis of the deposited data

Results flagged for a closer look

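In 4 pericyte and smooth muscle markers the lesion effect differed between the stages by the interaction test of limma across all probes. The difference, tumor effect minus papilloma effect on the log2 scale, was -2.06 for Acta2 (adjusted p = 0.0464), -2.13 for Tagln (adjusted p = 0.0343), -2.48 for Cspg4 (adjusted p = 0.0343) and -2.69 for Actg2 (adjusted p = 0.0343). Actg2 was higher by 3.59 in papilloma than in papilloma skin and by 0.89 in tumor than in tumor skin, whereas Acta2 was higher by 1.30 in papilloma and lower in tumor (-0.76). All 4 calls were kept in 4 of 23 alternatives, which changed the level or fold minimum, the gene median or the filter on dim probes. They were lost with slide as a term (adjusted p = 0.741 for each), with the replicate block, with every treatment of the scanner files and on leaving out any single array (adjusted p of 0.0681 to 0.22). The sign of Actg2 turned with scanner values of the 6 arrays of full spike-in slope (0.47). Vegfc and Pdgfb probe 1, which were highest on the same papilloma arrays, had differences of 0.00 (adjusted p = 0.999) and -0.62 (adjusted p = 0.761). Groups of 2 or 3 arrays were too small for a test of single outlying arrays.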

How the results depend on the processing

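No replicate error is available beyond 2 or 3 pooled arrays a group, and the probes near background (Fgf2, Pdgfb probe 2) give bounds at most. The direction of both Vegfa probes, Hbegf and Prok2 in the comparisons in which they were called was kept in all 23 alternatives. Some of these could not change a direction. They altered only the level or fold minimum or the filter on dim probes, or left out an array of a group outside the comparison. The gene median could not change it for members with 1 probe. The 6 arrays of full spike-in slope hold a single array each of papilloma skin, tumor skin and tumor. The direction of Thbs1 was kept in 18 of 23. No member was called in tumor versus papilloma or in the difference between the lesion effects under any of them. With the value table, 3 member probes were called in tumor versus tumor skin without any single array (3 to 3), 2 to 4 in papilloma versus papilloma skin, with 2 without papilloma skin 2 or papilloma 2, and 0 to 0 in tumor skin versus papilloma skin. Without papilloma skin 2 or papilloma 2, Vegfa probe 1 had an effect of 0.95. With slide as a term, 1 was called in the tumor comparison (Hbegf) and 0 between the skin groups. Without the columns papilloma skin 1 and tumor 1, 2 were called in the papilloma comparison and 0 between the skin groups, and with the 6 columns of full spike-in slope 0 between the skin groups.

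Scanner values, quantile normalized with or without slide as a term, scaled to the 75th percentile, after normexp, or for the 6 arrays of full slope, gave 0 calls in all 3 comparisons. With ComBat 0 were called in tumor versus tumor skin, 5 in papilloma versus papilloma skin and 0 between the skin groups, where 122, 3963 and 0 of all probes were called (2346, 1769 and 145 in the table). The other scanner settings called 0 of all probes. Thbs1 reversed with scanner values. In papilloma versus papilloma skin it was 0.77 without slide correction, 0.71 with slide as a term, 0.72 with ComBat, 0.88 with the 75th percentile and 0.57 with normexp. In tumor skin versus papilloma skin it was 0.34, 0.58, 0.58, 0.14 and 0.15. With scanner values of the 6 arrays of full slope, which leave out papilloma skin 1 and keep a single array in each skin group, the Thbs1 effects were -1.23 and -1.10. Thbs1 on papilloma skin 1 read 8.02 in the quantile-normalized scanner file and 11.92 in the table, and the cause was not tested.

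With the replicate number as a block, 3 member probes were called in tumor versus tumor skin, 1 in papilloma versus papilloma skin and 0 between the skin groups, beside 737, 552 and 0 of all probes. Deviations of same-numbered arrays correlated with r of -0.959 to 0.534 over 12 pairs, 4 of them above 0.1. Within such small groups the deviations offset each other, so the same r recurs in different pairs and the values are not independent. They therefore cannot decide whether the numbers paired the samples.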
